A study of Mus musculus with 17 samples.

Results

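The integrated stress response and the unfolded protein response are followed here through 47 genes in epidermal stem cells of mice, out of 48820 gene identifiers in the deposited count table. The genes came from a written list of eIF2 kinases, Atf4 targets and genes of endoplasmic reticulum (ER) stress, matched to the table by Ensembl identifier. The list was read across 6 groups to ask whether loss of a ribosome rescue factor raises these responses. Each of the 47 had 1 row in the table, and all 47 were among the 30405 genes with enough counts to be tested.

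RNA-seq was made from 3 populations of epidermal stem cells, sorted by the green fluorescent protein that is expressed from the Lrig1, Lgr5 or Lgr6 locus together with the tamoxifen-inducible recombinase CreERT2. All mice were C57BL/6 animals of 3 months that carried such an EGFP-CreERT2 allele and had received 4-hydroxytamoxifen (4-OHT), controls included. The controls had the genotype Pelo fl/+, are labelled WT, and so could lose 1 of their Pelo alleles; the mutants had the genotype Pelo fl/fl and are labelled Pelo -/-. Deletion depends on Cre made from the marker locus, so it is limited to cells in which that locus has been active. Libraries were prepared from 1000 GFP-positive cells by a full-length protocol. WT Lrig1 had 2 libraries and the other 5 groups had 3 each. Nothing in the labels says that replicates were separate animals, so p-values measure the spread between these samples, which may be technical.

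Phosphorylation of the initiation factor eIF2 by any of its kinases slows general translation while the mRNA of the transcription factor Atf4 is translated more. Atf4 then switches on genes for amino acid synthesis and uptake, and the phosphatase subunit Ppp1r15a reverses the phosphorylation. Unfolded proteins in the ER activate Eif2ak3 (PERK), Ern1 (IRE1) and Atf6, which through Atf4, spliced Xbp1 and cleaved Atf6 raise chaperones such as Hspa5 (BiP). Collided ribosomes are known to activate Eif2ak4 (GCN2), and Pelo releases stalled ribosomes, which links a rescue factor to this response. Kinase activity, eIF2 phosphorylation, Xbp1 splicing and protein levels are not measured by gene counts.

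Promoter sequences were read to show the elements through which the 2 arms are known to act. The RefSeq promoter table (build GRCm38.p6, 250 bases before to 50 after a start) held 40 of the 47 genes; Hyou1, Aldh1l2, Manf, Ppp1r15b, Cth, Atf6 and Slc7a5 were not matched. The ER stress element was searched as CCAAT, 9 unspecified bases and CCACG, and the C/EBP-ATF response element as TGATGNAA, each on both strands. The ER stress element was found in 7 of the 40 genes (Hspa5, Calr, Hsp90b1, Canx, Pdia6, Dnajc3 and Creld2), which is 17.5%, against 0.137% of all 27025 genes in the table (0.119% of 32851 windows). The C/EBP-ATF element was found in 7 others (Chac1, Trib3, Slc7a11, Asns, Nupr1, Herpud1 and Pck2), again 17.5%, against 4.51% of all genes (3.97% of windows). A match describes these letters only. The list was chosen for such genes, and the absence of a match says only that the letters are not in this window. Chaperone promoters are shown because these 4 genes were called between populations in the results below; each line holds the 200 bases before the start, 5′ to 3′ along the gene, with the match in capitals. They lie at chr2:34771890-34772089 (plus strand) for Hspa5, chr8:84846932-84847131 (minus strand) for Calr, chr11:50325674-50325873 (minus strand) for Canx and chr12:17266389-17266588 (plus strand) for Pdia6. In Calr the element is on the opposite strand and so reads CGTGG before ATTGG.
Hspa5: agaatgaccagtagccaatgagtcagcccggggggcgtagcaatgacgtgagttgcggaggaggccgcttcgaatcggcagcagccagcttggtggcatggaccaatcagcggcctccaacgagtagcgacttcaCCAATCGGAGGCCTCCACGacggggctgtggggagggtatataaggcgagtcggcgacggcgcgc
Calr: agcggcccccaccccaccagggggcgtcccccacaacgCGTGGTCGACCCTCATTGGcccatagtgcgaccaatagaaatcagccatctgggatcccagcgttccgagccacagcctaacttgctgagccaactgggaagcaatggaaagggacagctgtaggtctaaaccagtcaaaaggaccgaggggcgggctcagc
Canx: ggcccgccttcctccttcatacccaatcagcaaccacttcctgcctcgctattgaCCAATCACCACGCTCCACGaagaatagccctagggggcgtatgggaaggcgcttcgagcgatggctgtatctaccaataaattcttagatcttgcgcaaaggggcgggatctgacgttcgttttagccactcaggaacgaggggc
Pdia6: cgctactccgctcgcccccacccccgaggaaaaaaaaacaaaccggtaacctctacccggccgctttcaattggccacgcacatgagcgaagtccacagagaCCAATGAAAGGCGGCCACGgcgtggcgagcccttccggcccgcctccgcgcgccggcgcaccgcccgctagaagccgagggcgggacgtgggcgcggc

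Promoters with a match to the C/EBP-ATF element are shown for Asns and Herpud1, which were called between populations. That of Chac1, which stayed at low levels throughout, is shown too, again with the match in capitals. Herpud1 is grouped here with ER-associated degradation, and the match does not assign it to 1 arm. Only the letters given above were searched, so any other element in these lines is not marked. They lie at chr6:7693210-7693409 (minus strand) for Asns, chr8:94386229-94386428 (plus strand) for Herpud1 and chr2:119351042-119351241 (plus strand) for Chac1. In Herpud1 and Chac1 the element is on the opposite strand.
Asns: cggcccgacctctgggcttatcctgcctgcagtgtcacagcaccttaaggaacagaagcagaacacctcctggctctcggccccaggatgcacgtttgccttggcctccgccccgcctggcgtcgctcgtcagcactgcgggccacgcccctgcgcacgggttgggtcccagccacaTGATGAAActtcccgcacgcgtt
Herpud1: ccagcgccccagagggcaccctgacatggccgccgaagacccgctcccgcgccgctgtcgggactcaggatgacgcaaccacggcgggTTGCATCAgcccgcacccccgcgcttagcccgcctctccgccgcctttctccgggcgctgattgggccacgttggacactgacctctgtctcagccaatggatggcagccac
Chac1: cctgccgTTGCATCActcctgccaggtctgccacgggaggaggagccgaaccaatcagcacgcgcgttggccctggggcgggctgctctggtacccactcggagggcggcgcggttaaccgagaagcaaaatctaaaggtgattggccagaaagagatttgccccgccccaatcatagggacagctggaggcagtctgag

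Libraries held 9647507 to 28098841 counts, with a median of 18937127, and levels are given as CPM, that is counts divided by the library total, scaled by TMM factors and set to the usual common total. The Lgr5 libraries stood apart: their TMM factors were 0.990 to 1.91 against 0.688 to 0.964 elsewhere, and the rank correlation between replicates was 0.775 to 0.825 against 0.861 to 0.885 elsewhere. WT Lgr5 libraries held 9647507 to 11261870 counts, below the 19723018 to 28098841 of WT Lrig1 and WT Lgr6. Pelo -/- Lgr5 libraries held 10501324 to 17219054, and Pelo -/- Lrig1 and Lgr6 libraries 13333497 to 22471651. The mitochondrial share of counts was 3.69% to 15.3% in Lgr5 libraries and 4.66% to 7.68% elsewhere. In WT Lgr5 replicate 3 a single predicted gene, Gm10800, took 16.6% of counts, against 6.60% and 2.73% in replicates 1 and 2. Summed keratinocyte markers were 5723 to 13807 CPM in the 6 Lgr5 libraries and 23888 to 35087 CPM in the others, and Krt14 was present in all of them. Lgr5 itself averaged 403 CPM in WT Lgr5 and 18.2 and 8.93 CPM in WT Lrig1 and WT Lgr6. Lrig1 averaged 40.5 CPM in WT Lrig1, 50.6 in WT Lgr6 and 14.7 in WT Lgr5, and Lgr6 averaged 145 CPM in WT Lgr6, 83.5 in WT Lrig1 and 72.0 in WT Lgr5, so the Lrig1 transcript was not highest in the Lrig1 sort. Pelo counts did not separate the genotypes: the log2 fold change was -1.49 ± 0.83 (SE) in Lrig1, 0.09 ± 0.75 in Lgr6 and 0.31 ± 0.74 in Lgr5, and none passed in edgeR (adjusted p = 1, 1 and 0.9997). Which part of the gene is deleted is not given in the labels, so a direction below is that of the library labels.

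**Figure D1:**
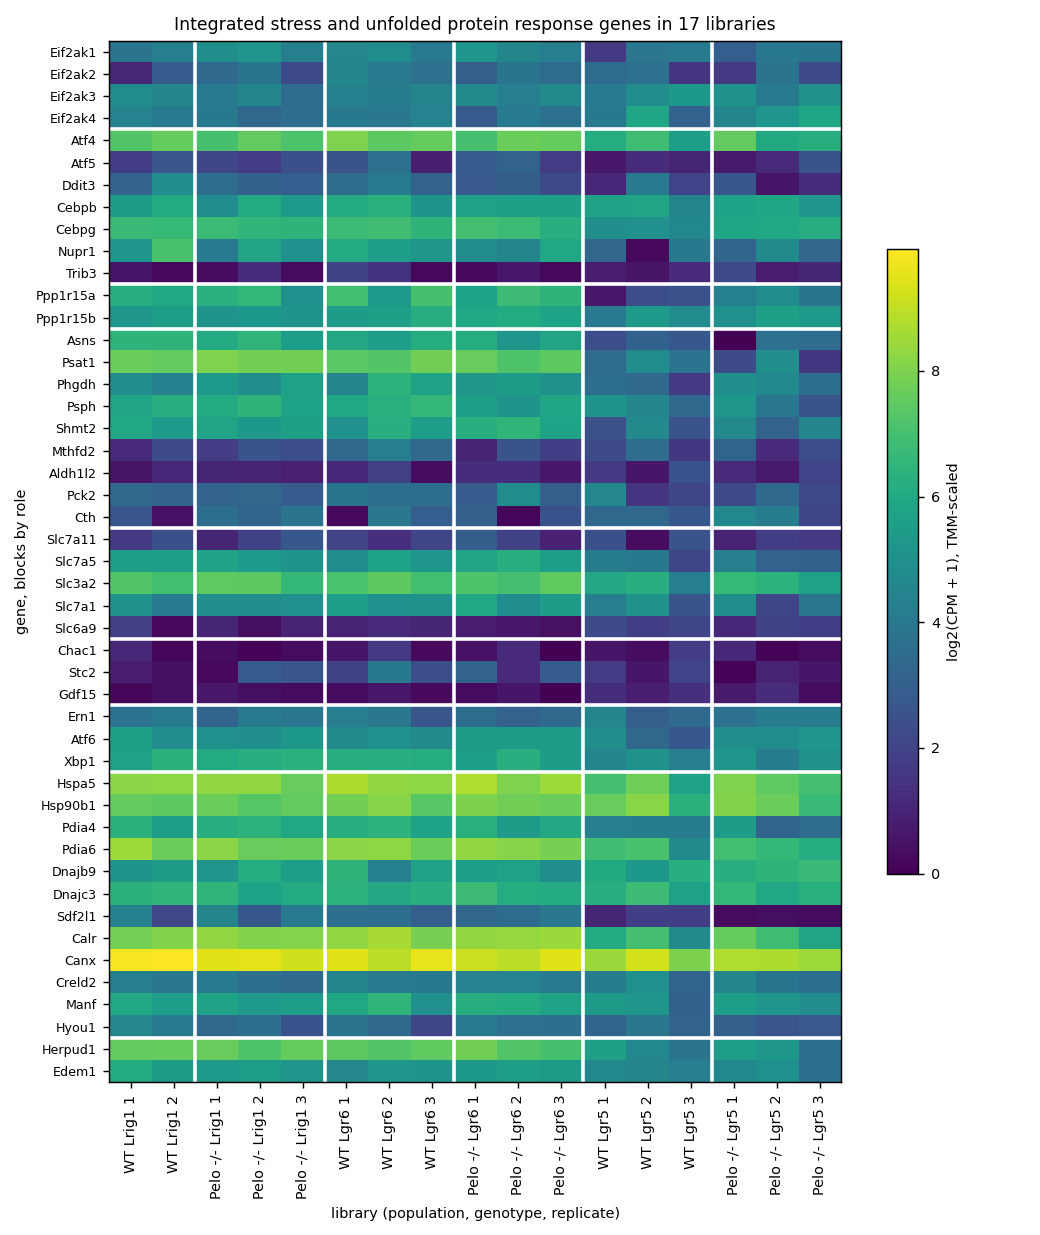
Colour gives log2(CPM + 1) of the 47 genes (rows, in blocks by role) in the 17 libraries (columns, in blocks by group). Canx is the brightest row, Gdf15, Chac1 and Trib3 stay dark in all libraries, and Ppp1r15a, Asns and Psat1 are darker in the 6 Lgr5 libraries.

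Per kilobase of exon, Atf4 and several ER genes were the most abundant of the 47 in WT Lgr6 and WT Lgr5. In WT Lgr6, mean levels were 138 CPM per kb for the ER lectin Canx, 110 for its soluble relative Calr, 87.1 for Atf4, 82.1 for Hspa5, 72.5 for the ER degradation factor Herpud1 and 71.4 for the disulfide isomerase Pdia6. In WT Lgr5, the order was Canx (86.3), the ER heat shock protein Hsp90b1 (47.2), Atf4 (32.6) and Hspa5 (31.0), again in CPM per kb. Several genes known for strong induction in an acute response were low in every library. The highest value over 17 libraries was 2.52 CPM for the glutathione-degrading enzyme Chac1, 1.53 CPM for the secreted cytokine Gdf15, 3.52 CPM for the pseudokinase Trib3 and 6.67 CPM for the cystine transporter Slc7a11.

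Between libraries labelled Pelo -/- and WT, none of the 47 genes passed edgeR's test in any population. With its quasi-likelihood version and a limit of 0.05 on the Benjamini-Hochberg adjusted p, 0 of 47 were called in Lrig1, 0 in Lgr6, 0 in Lgr5 and 0 in the mean of the 3 populations. Over all genes tested the share called was 0% in Lrig1, 0% in Lgr6, 0.0197% in Lgr5 (6 genes, all higher) and 0% in the mean. At an unadjusted p under 0.05 there were 1, 2, 5 and 2 of the 47, against 3.64%, 3.88%, 6.25% and 4.96% of all genes. DESeq2 called 0, 0, 3 and 0 of the 47, limma-voom 0 in each, and edgeR without a filter on low counts 1 in Lgr5. DESeq2's share over all genes was 0.109%, 0.0592%, 0.622% and 0.191%, and that of edgeR without the filter was 0.172% in Lgr5.

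The median of the list had no stable sign. The 47 genes' median log2 fold change was -0.10 in Lrig1, -0.13 in Lgr6, 0.11 in Lgr5 and -0.02 in the mean, beside -0.02, -0.27, -0.14 and -0.12 over all genes tested. With 1 library left out it ran from -0.13 to 0.10, -0.20 to 0.06, -0.07 to 0.35 and -0.09 to 0.12, and with RLE the Lgr5 value was -0.05. Values lay above 0 for 20, 21 and 27 of the 47 in Lrig1, Lgr6 and Lgr5. Pelo -/- libraries lay wholly above WT for 3 genes in Lrig1 (8.17% of all genes did), 2 in Lgr6 (2.5%) and 2 in Lgr5 (3.8%). They lay wholly below for 4 (10.7%), 4 (5.74%) and 2 (4.41%).

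The precision was limited, and the intervals say how far. The median standard error was 0.62, 0.54 and 0.55 on the log2 scale in Lrig1, Lgr6 and Lgr5, and 0.33 in the mean. The 95% interval excluded a 2-fold rise for 19, 25 and 15 of the 47 in the 3 populations and for 34 in the mean. It excluded a 2-fold fall for 12, 20, 26 and 33. For the other genes a change of that size was not excluded by these libraries. The interval of the mean lay wholly above 0 for 1 gene and wholly below 0 for 1.

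**Figure D2:**
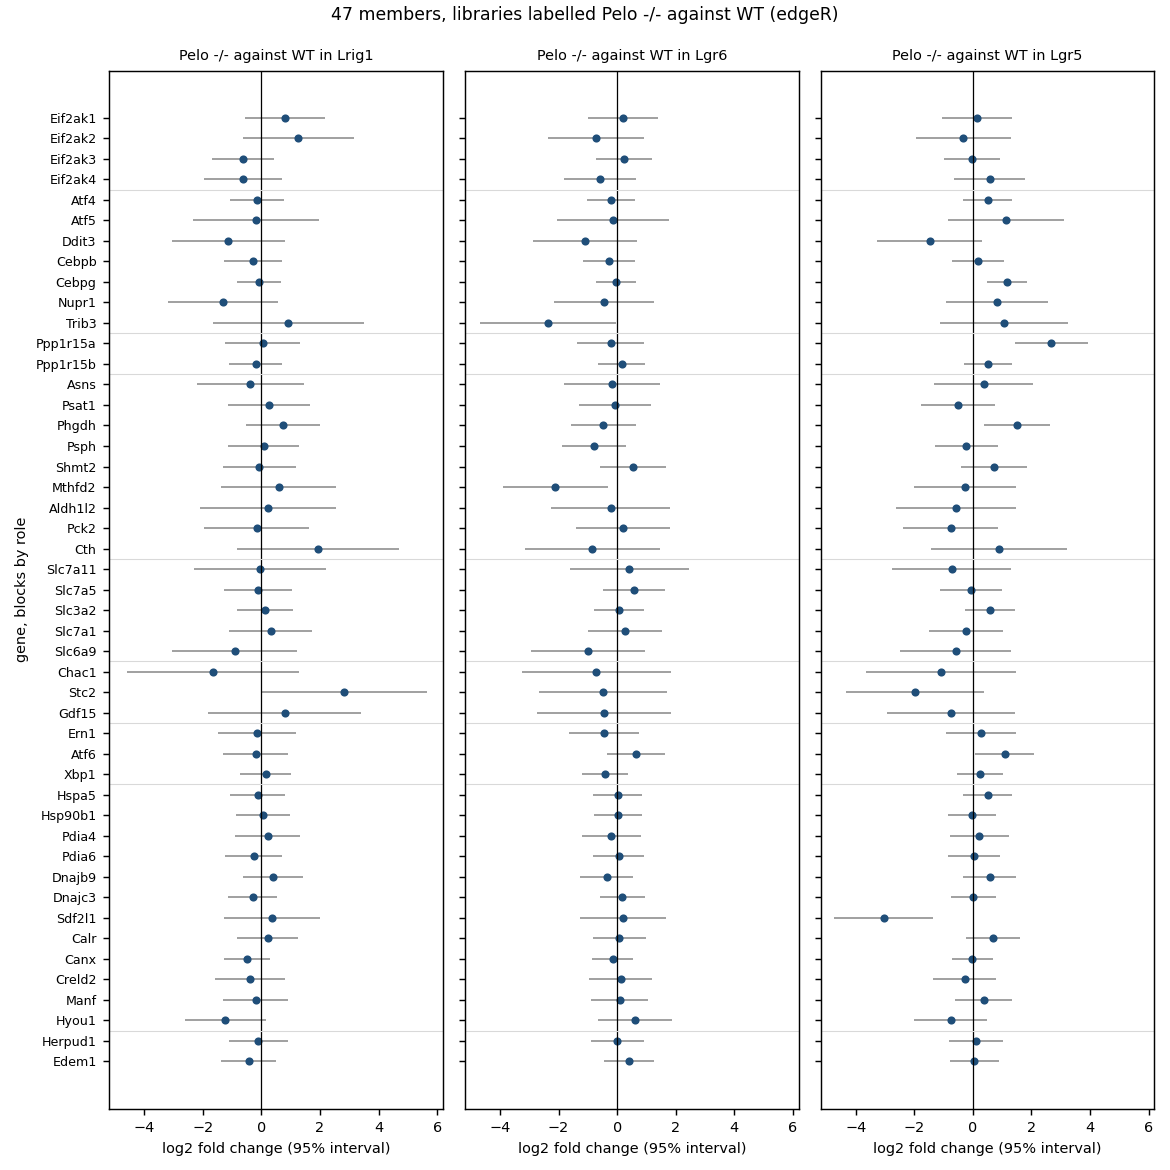
Points give the log2 fold change of Pelo -/- against WT for each of the 47 genes in Lrig1, Lgr6 and Lgr5, with 95% intervals as lines. Most intervals cross 0; Ppp1r15a and Sdf2l1 lie farthest from it in Lgr5, at 2.68 and -3.05.

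The eIF2 kinases were read first. Eif2ak4, the sensor of uncharged tRNA and collided ribosomes, measured 20.1 and 16.3 CPM in WT Lrig1 and 15.4, 9.05 and 10.8 CPM in Pelo -/- Lrig1. Lgr6 cells held 15.2, 14.8 and 20.3 CPM (WT) and 6.03, 15.4 and 12.1 CPM (Pelo -/-), and in Lgr5 15.1, 55.7 and 7.71 CPM (WT) and 22.1, 36.3 and 58.4 CPM (Pelo -/-). The groups overlapped in Lgr6 and Lgr5, and in Lrig1 all Pelo -/- values lay below WT; the log2 fold changes were -0.63 ± 0.65, -0.59 ± 0.59 and 0.57 ± 0.59 (SE) in Lrig1, Lgr6 and Lgr5.

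Eif2ak3, the ER-resident kinase PERK, measured 27.1 and 21.95 CPM in WT Lrig1 and 15.6, 21.7 and 10.1 CPM in Pelo -/- Lrig1. In Lgr6 it measured 19.8, 17.5 and 21.9 CPM (WT) and 24.6, 18.8 and 25.8 CPM (Pelo -/-), and in Lgr5 16.6, 28.6 and 38.9 CPM (WT) and 32.2, 16.03 and 33.9 CPM (Pelo -/-). Its log2 fold changes were -0.63 ± 0.52, 0.23 ± 0.47 and -0.04 ± 0.47, with Pelo -/- wholly below WT in Lrig1 alone.

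Eif2ak1, the heme-regulated kinase, measured 13.1 and 18.8 CPM in WT Lrig1 and 29.8, 35.4 and 18.5 CPM in Pelo -/- Lrig1. Its Lgr6 values were 23.4, 27.3 and 16.3 CPM (WT) and 36.3, 22.7 and 18.2 CPM (Pelo -/-), and in Lgr5 2.23, 14.5 and 15.9 CPM (WT) and 6.87, 15.3 and 13.7 CPM (Pelo -/-). This kinase was 1 of 3 genes of the list with a value above 0 in every population (0.81 ± 0.66, 0.20 ± 0.58 and 0.14 ± 0.58), and its groups overlapped in each.

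Eif2ak2, the kinase PKR that senses double-stranded RNA, measured 1.08 and 6.29 CPM in WT Lrig1 and 9.48, 13.5 and 3.58 CPM in Pelo -/- Lrig1. Lgr6 libraries held 22.8, 16.1 and 12.3 CPM (WT) and 6.96, 13.7 and 10.3 CPM (Pelo -/-), and in Lgr5 10.2, 12.2 and 1.86 CPM (WT) and 2.23, 13.2 and 3.92 CPM (Pelo -/-). Replicates of 1 group differed by up to several fold, and the log2 fold changes were 1.26 ± 0.92, -0.72 ± 0.79 and -0.33 ± 0.79. None of the 4 kinases was called in any of the Pelo -/- comparisons.

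Among transcription factors, Atf4, the effector of the integrated stress response, measured 151 and 193 CPM in WT Lrig1 and 133, 185 and 141 CPM in Pelo -/- Lrig1. Its levels in Lgr6 were 256, 171 and 189 CPM (WT) and 129, 211 and 191 CPM (Pelo -/-), and in Lgr5 69.97, 113 and 47.02 CPM (WT) and 186, 64.3 and 75.1 CPM (Pelo -/-). The groups overlapped in all 3 populations. Log2 fold changes were -0.17 ± 0.45, -0.22 ± 0.40 and 0.50 ± 0.40 in Lrig1, Lgr6 and Lgr5. In the mean of the 3, Atf4 measured 0.04 ± 0.24 with a 95% interval of -0.46 to 0.54. Atf4 is regulated largely in translation, which these counts do not show.

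Ddit3 (CHOP), the factor tied to prolonged ER stress, measured 7.97 and 28.6 CPM in WT Lrig1 and 10.6, 7.60 and 6.85 CPM in Pelo -/- Lrig1. In Lgr6 it stood at 10.7, 16.1 and 7.81 CPM (WT) and 5.79, 6.69 and 3.72 CPM (Pelo -/-), and in Lgr5 1.22, 16.5 and 2.95 CPM (WT) and 5.46, 0.496 and 1.45 CPM (Pelo -/-). Values were lower in Pelo -/- than the WT mean in each population, with no overlap in Lgr6, but the WT means of Lrig1 and Lgr5 rested on replicate 2 in each. Log2 fold changes were -1.13 ± 0.93, -1.10 ± 0.86 and -1.47 ± 0.87, and the mean of the 3 was -1.23 ± 0.51 (95% interval -2.29 to -0.18). That mean had an unadjusted p of 0.0237 and was not called in edgeR (adjusted p = 0.980). Leaving out 1 library at a time gave -1.68 to -0.60 for it. When replicate 2 of WT Lrig1 was left out, or replicate 2 of WT Lgr5, the population's own value turned from negative to positive, at 0.22 in Lrig1 and 0.27 in Lgr5.

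Trib3, a pseudokinase induced by Atf4 and Ddit3, measured 0.479 and 0.193 CPM in WT Lrig1 and 0.273, 1.39 and 0.234 CPM in Pelo -/- Lrig1. Lgr6 values were 2.80, 1.76 and 0.155 CPM (WT) and 0.176, 0.562 and 0.159 CPM (Pelo -/-), and in Lgr5 0.744, 0.449 and 1.31 CPM (WT) and 3.52, 0.709 and 1.02 CPM (Pelo -/-). No library exceeded 3.52 CPM. The Lgr6 groups overlapped, with a log2 fold change of -2.38 ± 1.13. Of the other factors, Nupr1, a small stress-induced chromatin protein, measured 35.9 and 134 CPM in WT Lrig1 and 15.7, 55.4 and 31.2 CPM in Pelo -/- Lrig1 (log2 fold change -1.32 ± 0.90). Its WT replicates were themselves far apart.

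In Lgr5 cells the 2 smallest p-values for higher levels belonged to Ppp1r15a and Cebpg, and neither passed in edgeR. Ppp1r15a (GADD34; GRCm38 chr7:45522916-45526268, minus strand), which brings the phosphatase to eIF2, measured 0.541, 4.23 and 4.59 CPM in WT Lgr5 and 19.6, 27.2 and 13.6 CPM in Pelo -/- Lgr5. All Pelo -/- values lay above all WT values, with a log2 fold change of 2.68 ± 0.60 and an edgeR adjusted p of 0.128. Leaving out 1 library at a time gave adjusted p-values of 0.0995 to 0.307. DESeq2 called it (2.47, adjusted p = 0.0362), as did edgeR without the filter on low counts (2.72, adjusted p = 0.00257). In Lrig1 (72.99 and 59.9 CPM WT and 79.1, 95.2 and 30.8 CPM Pelo -/-) and Lgr6 (120.2, 40.7 and 133 CPM and 52.9, 111 and 86.98 CPM) the groups overlapped. The Lrig1 and Lgr6 effects minus the Lgr5 effect were tested and were not called in edgeR (-2.64 ± 0.84, adjusted p = 0.842, and -2.91 ± 0.81, adjusted p = 0.749). The mean of Ppp1r15a over the 3 populations was 0.83, the highest of the 47, and was not called in edgeR.

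Cebpg, the dimer partner of Atf4 at amino acid genes (chr7:35046422-35056573, minus strand), measured 29.2, 31.2 and 23.7 CPM in WT Lgr5 and 56.5, 60.1 and 72.4 CPM in Pelo -/- Lgr5, again without overlap. The log2 fold change was 1.17 ± 0.34, with an adjusted p of 0.367 in edgeR and 0.0188 in DESeq2. In the other populations its levels were 103 and 100.4 CPM (WT Lrig1), 108, 91.5 and 86.8 CPM (Pelo -/- Lrig1), 108, 117 and 88.1 CPM (WT Lgr6) and 124, 107 and 73.8 CPM (Pelo -/- Lgr6), and the groups overlapped in both.

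A list of 14 immediate early and heat shock genes that are known to respond to cell dissociation was read beside these values. All 14 had values above 0 for Pelo -/- against WT in Lgr5 (median 1.58), with 0 called in edgeR. Their summed level was 2812, 2870 and 1219 CPM in WT Lgr5 and 10905, 6528 and 3104 CPM in Pelo -/- Lgr5. Atf3, a stress-induced factor that is in that list and is also an integrated stress response target, measured 2.07 ± 0.67 on the log2 scale in that comparison (edgeR adjusted p = 0.541). All 8 melanocyte markers were above 0 as well, summing to 64.1, 134 and 106 CPM in WT Lgr5 and 334, 148 and 151 CPM in Pelo -/- Lgr5, and none was at 0 in these 6 libraries. The part of either list in the Ppp1r15a and Cebpg values was not tested.

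The lower values in Lgr5 were led by Sdf2l1, a partner of ER chaperone complexes (chr16:17130138-17132383, minus strand). It measured 1.01, 2.56 and 2.62 CPM in WT Lgr5 and 0.235, 0.284 and 0.215 CPM in Pelo -/- Lgr5, that is 15, 40 and 48 counts against 4, 4 and 4. Groups did not overlap (log2 fold change -3.05 ± 0.82), with an adjusted p of 0.320 in edgeR and 0.00452 in DESeq2. In Lrig1 and Lgr6 the groups overlapped, with log2 fold changes of 0.35 and 0.21.

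Among amino acid enzymes, Asns, asparagine synthetase and a standard Atf4 target, measured 87.6 and 88.2 CPM in WT Lrig1 and 66.2, 90.4 and 45.3 CPM in Pelo -/- Lrig1. Lgr6 cells had 63.3, 46.2 and 71.1 CPM (WT) and 70.2, 35.1 and 54.3 CPM (Pelo -/-), and in Lgr5 4.26, 7.43 and 5.74 CPM (WT) and 0, 12.5 and 10.1 CPM (Pelo -/-). Groups overlapped in each population, and log2 fold changes were -0.38 ± 0.88, -0.18 ± 0.79 and 0.37 ± 0.81. Its mean over populations was -0.06, with a 95% interval of -1.06 to 0.94. Phgdh, which opens serine synthesis, measured 11.2, 9.48 and 2.19 CPM in WT Lgr5 and 29.6, 24.1 and 11.005 CPM in Pelo -/- Lgr5 (1.50 ± 0.55, edgeR adjusted p = 0.626), and the ranges overlapped by a small margin.

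Mthfd2, a mitochondrial enzyme of the folate cycle, measured 9.60, 17.8 and 9.21 CPM in WT Lgr6 and 0.995, 4.87 and 2.55 CPM in Pelo -/- Lgr6. All Pelo -/- values lay below WT (-2.12 ± 0.87), with an unadjusted p of 0.0224 and an edgeR adjusted p of 1. In Lrig1 and Lgr5 its values were 0.58 and -0.27 on the log2 scale. Cth, the cystathionine-cleaving enzyme, measured 5.33 and 0.387 CPM in WT Lrig1 and 11.2, 8.26 and 13.005 CPM in Pelo -/- Lrig1, all of them above WT, with the WT replicates far apart (1.92 ± 1.34, adjusted p = 1 in edgeR).

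The transport and secreted targets held no call. Slc7a5, which carries large neutral amino acids, measured 27.6, 54.1 and 36.8 CPM in WT Lgr6 and 55.004, 74.9 and 46.4 CPM in Pelo -/- Lgr6 (0.57 ± 0.51), with overlap. Chac1 measured 1.14 and 0.0967 CPM in WT Lrig1 and 0.273, 0.0603 and 0.234 CPM in Pelo -/- Lrig1. In Lgr6 cells it was 0.537, 2.17 and 0.207 CPM (WT) and 0.410, 1.31 and 0.0531 CPM (Pelo -/-), and in Lgr5 0.473, 0.256 and 2.52 CPM (WT) and 1.17, 0.0709 and 0.268 CPM (Pelo -/-). The values below 0 in each population (-1.66, -0.72 and -1.09) rested on 1 to 46 counts a library. Stc2, a secreted glycoprotein induced by ER stress, measured 0.719 and 0.338 CPM in WT Lrig1, 0.164, 6.09 and 5.14 CPM in Pelo -/- Lrig1, 2.43, 0.513 and 3.01 CPM in WT Lgr5 and 0.0587, 0.922 and 0.537 CPM in Pelo -/- Lgr5. Its log2 fold changes were of opposite sign in Lrig1 (2.83 ± 1.37, the 1 gene there with an unadjusted p under 0.05) and Lgr5 (-1.97 ± 1.14). Groups overlapped in both.

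For the ER arm, Hspa5, the main ER chaperone, measured 298 and 303 CPM in WT Lrig1 and 313, 313 and 195 CPM in Pelo -/- Lrig1. The Lgr6 libraries measured 418, 316 and 308 CPM (WT) and 435, 259 and 358 CPM (Pelo -/-), and in Lgr5 129, 212 and 52.5 CPM (WT) and 256, 176 and 127 CPM (Pelo -/-). The genotypes overlapped in each population. The log2 fold changes were -0.14 ± 0.45, 0.01 ± 0.41 and 0.51 ± 0.41, and the mean was 0.13 (95% interval -0.37 to 0.63).

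Xbp1, whose mRNA is spliced by Ern1, measured 50.6 and 82.8 CPM in WT Lrig1 and 65.8, 73.7 and 80.99 CPM in Pelo -/- Lrig1. Its Lgr6 levels were 75.1, 74.8 and 70.3 CPM (WT) and 45.2, 73.9 and 44.7 CPM (Pelo -/-), and in Lgr5 22.1, 32.6 and 17.99 CPM (WT) and 35.2, 17.2 and 33.3 CPM (Pelo -/-). Its ranges overlapped as well, and the mean over populations was -0.02 (95% interval -0.49 to 0.46). Atf6, the ER sensor cleaved in the Golgi, measured 25.9, 31.95 and 24.8 CPM in WT Lgr6 and 42.4, 42.6 and 42.7 CPM in Pelo -/- Lgr6 (0.63 ± 0.48), without overlap. In Lgr5 Atf6 measured 29.1, 9.10 and 5.63 CPM (WT) and 29.8, 27.9 and 35.2 CPM (Pelo -/-), with overlap (1.08 ± 0.49, unadjusted p = 0.0345). Neither was called in edgeR (adjusted p = 1 and 0.759).

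The 12 ER chaperones and folding enzymes had values above 0 for 5 genes in Lrig1, 9 in Lgr6 and 7 in Lgr5, with medians of -0.17, 0.06 and 0.03. Hyou1, a large ER chaperone, measured 23.4 and 16.4 CPM in WT Lrig1 and 9.43, 11.3 and 4.67 CPM in Pelo -/- Lrig1 (-1.23 ± 0.67). Those groups did not overlap, and the adjusted p in edgeR was 1. Calr and the transporter subunit Slc3a2 were above 0 in every population, and the glycine transporter Slc6a9, Ddit3, Chac1 and Canx were below 0 in every population. With Eif2ak1, that made 3 of 47 above (8.22% of all genes) and 4 of 47 below (19% of all genes).

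**Figure D3:**
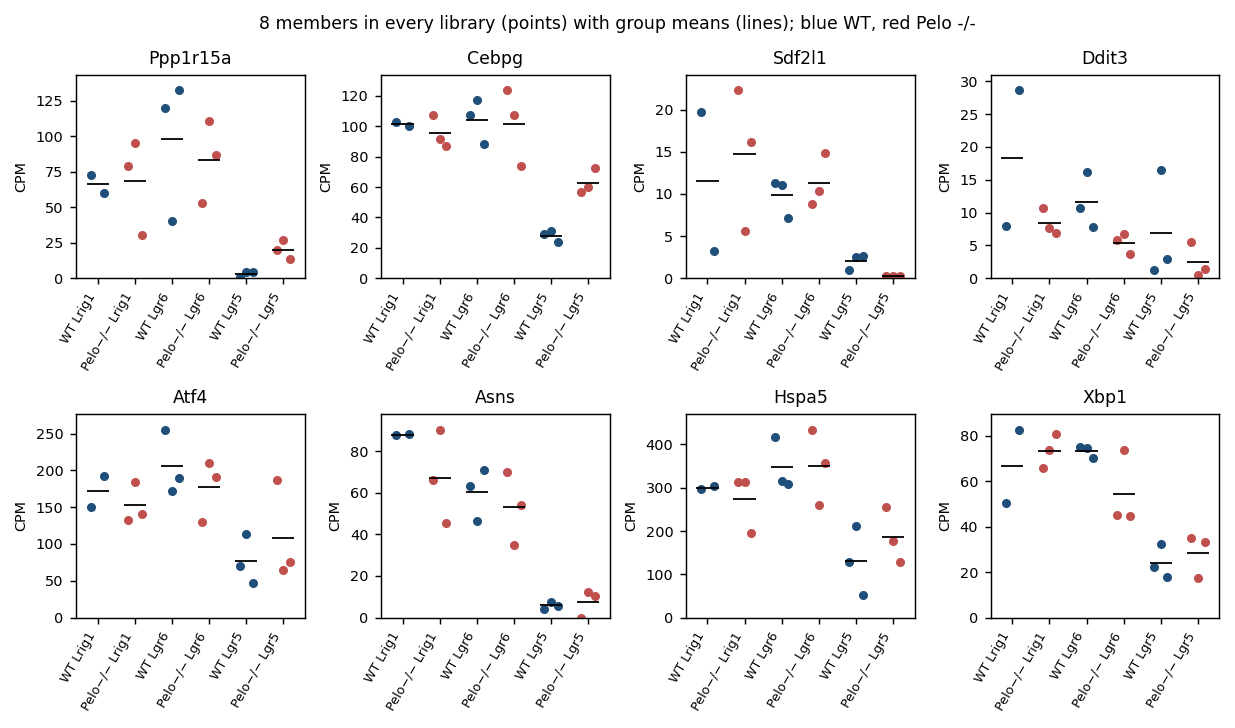
Points are CPM values of 8 genes in each library, lines are group means, and colour separates WT (blue) from Pelo -/- (red), on axes that start at 0. Ppp1r15a and Cebpg are higher and Sdf2l1 lower in the 3 Pelo -/- Lgr5 libraries than in the 3 WT Lgr5 libraries, and the group means of Asns and Xbp1 in Lgr5 lie below those of the other populations in both genotypes.

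Pelo effects were also compared between populations. Of the 47 genes, 0 differed in edgeR between Lrig1 and Lgr5, between Lgr6 and Lgr5, or between Lrig1 and Lgr6, as did 0% of all genes. At an unadjusted p under 0.05 in edgeR there were 4, 5 and 1 of 47 (8.51%, 10.6% and 2.13%), against 5.31%, 4.78% and 4.2% of all genes. DESeq2 and limma-voom each called 0 in all 3. The other genes of the pathways were a list of 69 with eIF2 and eIF2B subunits, aminoacyl-tRNA synthetases, further targets and ER degradation genes. They gave 0 calls in edgeR in each Pelo -/- comparison. At an unadjusted p under 0.05 there were 4, 1, 6 and 4 in Lrig1, Lgr6, Lgr5 and the mean (5.8%, 1.45%, 8.7% and 5.8%). The shares of all genes were 3.64%, 3.88%, 6.25% and 4.96%.

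The differences that passed were between populations. In WT cells, 15 of the 47 genes were called higher in Lrig1 than in Lgr5 and 0 lower, where 9.09% of all genes were called higher and 1.99% lower (11.1% in all). Between WT Lgr6 and WT Lgr5, 17 of 47 were called higher and 0 lower, where 10.6% of all genes were called higher and 1.57% lower (12.2% in all). Libraries lay wholly above WT Lgr5 for 23 of 47 genes in WT Lrig1 (19.7% of all genes) and 21 in WT Lgr6 (17.2%), and wholly below for 2 (25.4%) and 2 (12.6%). Both comparisons share the 3 WT Lgr5 libraries. The median log2 fold change of the 47 was 0.96 in the first, with all genes at -0.99, and 1.04 in the second, with all genes at -0.49. In bulk samples fewer cells of a type and less RNA of a gene per cell cannot be told apart.

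The counts depended on the setting more than the leading genes did. With RLE in place of TMM the median of all genes moved from -0.99 to -1.36 and from -0.49 to -0.996, and 8 and 9 genes of the list were called, all higher (17% and 19.1%, with 10.1% and 10.3% of all genes). With genes of a mean CPM of at least 5, the medians of all genes were -0.06 and -0.04, those of the 39 members left were 0.48 and 0.38, and the calls were 6 higher with 1 lower and 8 higher with 2 lower. Those calls were 17.9% and 25.6% of the members tested, below the 28.1% and 33.4% of all 10921 genes tested at that level (1663 higher and 1403 lower, and 1894 and 1752), so among genes of such abundance the list held no excess of calls. With only the compared groups in the fit, 5 of 46 (10.9%, all genes 9.78%) and 8 of 46 (17.4%, all genes 12%) were called. All genes split into 2765 higher and 604 lower with TMM and 2117 and 946 with RLE in the first comparison, and into 3236 and 477 and 2158 and 979 in the second. DESeq2 split them into 2866 higher and 4530 lower and into 3045 and 3219, with 12 higher and 1 lower and 12 higher and 2 lower among the 47 (27.7% and 29.8%, with 24.3% and 20.6% of all genes). Without WT Lgr5 replicate 3, the library with most Gm10800 counts, 6 and 8 were called (12.8% and 17%, all genes 9.14% and 9.09%). The first count was also 9 without WT Lgr5 replicate 1 (all genes 10.8%). It was 7 without WT Lrig1 replicate 1 (all genes 6.02%) and 5 without WT Lrig1 replicate 2 (all genes 3.65%). The second count was 11 without WT Lgr6 replicate 2 (all genes 10.6%) and 7 without WT Lgr6 replicate 3 (all genes 6.46%).

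Ppp1r15a led both comparisons, at 72.99 and 59.9 CPM in WT Lrig1 and 120.2, 40.7 and 133 CPM in WT Lgr6 against 0.541, 4.23 and 4.59 CPM in WT Lgr5. Every Lrig1 and Lgr6 value lay above every WT Lgr5 value, and the log2 fold changes were 4.40 ± 0.67 and 4.96 ± 0.66. Herpud1 (chr8:94386438-94395377, plus strand), an ER membrane protein of protein degradation, measured 189 and 193 CPM and 174, 150.4 and 183 CPM against 49.3, 23.9 and 13.2 CPM. Its groups were as clearly apart, at 2.73 ± 0.50 and 2.55 ± 0.47.

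Psat1 (chr19:15904678-15947337, minus strand), an enzyme of serine synthesis, measured 205 and 186 CPM in WT Lrig1 and 166, 155 and 219 CPM in WT Lgr6 against 10.1, 26.7 and 12.7 CPM in WT Lgr5. The log2 fold changes were 3.56 ± 0.69 and 3.45 ± 0.66, without overlap. Cebpg, whose levels stand above, measured 1.86 ± 0.37 and 1.89 ± 0.34. These 4 genes passed in edgeR in both comparisons (adjusted p of 1.5e-05 to 0.00130) and were called under every alternative and with any 1 library left out, the highest adjusted p with a library left out being 0.0387 (Cebpg without WT Lrig1 replicate 2).

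Among the amino acid genes, Asns measured 3.92 ± 0.93 in Lrig1 and 3.37 ± 0.87 in Lgr6 against Lgr5 on the log2 scale, and its call was lost without WT Lrig1 replicate 2 in the first (edgeR adjusted p = 0.0638) and without WT Lgr5 replicate 1 in the second (0.0560). The mitochondrial serine enzyme Shmt2 was called in both (2.17 ± 0.60 and 2.16 ± 0.57), as were Slc7a5 (1.93 ± 0.57 and 1.72 ± 0.52) and its partner chain Slc3a2 (1.39 ± 0.46 and 1.48 ± 0.42). Phgdh (2.80 ± 0.58) and the phosphatase Psph (1.85 ± 0.54) were called in Lgr6. In all, 3 of 9 synthesis enzymes were called in Lrig1 and 5 of 9 in Lgr6, and 2 of 5 transporters in each.

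Of the ER genes, Xbp1 was called in both (1.46 ± 0.42 and 1.60 ± 0.39), and 5 of 12 chaperones and folding enzymes in each. Calr measured 229 and 266 CPM in WT Lrig1, 308, 403 and 238 CPM in WT Lgr6 and 65.8, 129 and 26.3 CPM in WT Lgr5, without overlap (1.75 ± 0.49 and 2.10 ± 0.46). The isomerases Pdia4 (1.83 ± 0.54 and 1.97 ± 0.50) and Pdia6 (1.59 ± 0.48 and 1.52 ± 0.44) and Sdf2l1 (2.47 ± 0.80 and 2.24 ± 0.75) were called in both. Canx (1.24 ± 0.38) and Nupr1 (3.39 ± 0.95) were called in Lrig1, and Hspa5 (1.40 ± 0.41) and Atf4 (1.42 ± 0.41) in Lgr6. In Lrig1 Hspa5 and Atf4 had similar values without a call (1.20 ± 0.45, edgeR adjusted p = 0.0849, and 1.16 ± 0.44, adjusted p = 0.0920).

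Most of these calls were less stable than the 4 leading genes. Calr and Phgdh held in Lgr6 with any library left out (highest edgeR adjusted p 0.0496 and 0.0146). In Lrig1, Calr, Canx, Sdf2l1, Shmt2 and Slc3a2 held in 1 of 5 such fits, Pdia6, Slc7a5 and Xbp1 in 2, Nupr1 in 3 and Pdia4 in 0. In Lgr6, Atf4, Hspa5, Pdia6, Psph, Shmt2 and Slc7a5 held in 2 of 6, Pdia4 and Slc3a2 in 3, Xbp1 in 4 and Sdf2l1 in 0. Highest adjusted p-values in these fits ran up to 0.554 in Lrig1 (Sdf2l1) and 0.235 in Lgr6 (Psph).

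Members with lower values in WT Lrig1 or Lgr6 than in WT Lgr5 were not called in edgeR. Gdf15 measured 0.120 and 0.290 CPM in WT Lrig1, 0.239, 0.554 and 0.207 CPM in WT Lgr6 and 1.49, 0.769 and 1.53 CPM in WT Lgr5 (-2.57 ± 1.33 and -1.89 ± 1.10), on 2 to 28 counts a library. Slc6a9 measured 0.954, 1.31 and 1.03 CPM in WT Lgr6 and 3.99, 2.56 and 3.23 CPM in WT Lgr5 (-1.56 ± 0.94), without overlap. The ER co-chaperone Dnajb9 measured 34.5 and 42.5 CPM in WT Lrig1 and 65.03, 38.004 and 75.1 CPM in WT Lgr5 (-0.63 ± 0.50). Aldh1l2, a mitochondrial folate enzyme, measured 0.420 and 1.21 CPM and 2.23, 0.513 and 4.65 CPM in the same groups (-1.59 ± 1.17). The kinases measured -1.13 to 0.55 on the log2 scale in Lrig1 and -0.64 to 1.08 in Lgr6, with 0 of 4 called in each.

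WT Lrig1 and WT Lgr6 held no call between them. Of the 47, 0 passed in edgeR, 0 in DESeq2 and 0 in limma-voom, with 3 in edgeR at an unadjusted p under 0.05 (Stc2, Eif2ak2 and Mthfd2, all lower in Lrig1) and 0% of all genes called. Libraries of Lrig1 lay wholly above Lgr6 for 6 of 47 (5.85% of all genes) and wholly below for 5 (12.8%). The median of the 47 was -0.14, beside -0.34 for all genes.

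Markers and dissociation genes moved with the population difference. In WT Lrig1 and WT Lgr6, 8 of 11 keratinocyte markers were called higher than in WT Lgr5 in each. The dissociation list had 7 of 14 and 9 of 14 called higher and 1 lower in each, and its sum was 8884 and 9005 CPM in WT Lrig1, 6422, 2276 and 11523 CPM in WT Lgr6 and 1219 to 2870 CPM in WT Lgr5. In WT Lgr6, replicate 2 had both the lowest sum and the lowest Ppp1r15a (40.7 CPM). In WT Lgr5, replicate 3 had the lowest sum and the highest Ppp1r15a (4.59 CPM). The sums of the WT Lrig1 libraries were close, and the one with the lower sum had the higher Ppp1r15a. In Pelo -/- Lrig1 the library with the lowest sum (4116 CPM) had the lowest Ppp1r15a (30.8 CPM). The same held in Pelo -/- Lgr5 (3104 and 13.6 CPM). In Pelo -/- Lgr6 the library with the lowest sum (6931 CPM) had the highest Ppp1r15a (111 CPM). Melanocyte markers summed to 12.96 to 39.5 CPM in these WT Lrig1 and Lgr6 libraries and 64.1 to 134 CPM in WT Lgr5, with Mlana at 0 in both WT Lrig1 libraries. Other lists held few calls: 1 of 6 fibroblast markers was called lower in each, 1 of 7 Langerhans cell and macrophage markers and 1 of 4 sebocyte markers higher in each, and 0 of 5 T cell, 0 of 4 endothelial and 0 of 4 Merkel and neural markers in either. The part of these lists in the result was not tested.

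The same contrast within Pelo -/- cells shares no library with the WT one. There 8 of 47 genes were called higher in Lrig1 than in Lgr5 and 0 lower, where 5.77% of all genes were called higher and 2.08% lower (7.85% in all). There were 10 called higher in Lgr6 than in Lgr5 and 0 lower, where the shares were 7.23% and 2.72% (9.95% in all). Some alternatives called members lower too. DESeq2 gave 9 higher and 1 lower in Lrig1 (21.3%, all genes 15.1%) and 11 and 3 in Lgr6 (29.8%, all genes 17%). RLE gave 7 and 0 (14.9%, all genes 7.32%) and 6 and 1 (14.9%, all genes 9.44%). At a mean CPM of at least 5 the calls were 7 higher and 1 lower and 6 higher and 2 lower, each 20.5% of 39, with all genes at 23.1% and 28.3%. The 2 comparisons share the Pelo -/- Lgr5 libraries. The medians were 0.56 and 0.88, with all genes at -0.64 and -0.61. In these comparisons the dissociation list had 0 and 1 of 14 called higher and 1 lower in each, and 7 and 8 of 11 keratinocyte markers were called higher. Melanocyte markers were all below 0 (medians -4.64 and -4.19), with 4 of 8 called lower in each, and summed to 12.7 to 34.1 CPM in Pelo -/- Lrig1 and Lgr6 and 148 to 334 CPM in Pelo -/- Lgr5. The part of these lists in the result was not tested.

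For Lrig1, 7 genes were called in both genotypes, 46.7% of the 15 WT calls and 87.5% of the 8 Pelo -/- calls. They were Asns, Herpud1, Pdia4, Psat1, Sdf2l1, Slc7a5 and Xbp1. For Lgr6, 10 were called in both, 58.8% of 17 and 100% of 10, and they were Asns, Calr, Herpud1, Pdia4, Pdia6, Ppp1r15a, Psat1, Sdf2l1, Shmt2 and Slc7a5. The overlap of calls over all genes was not counted, so these shares cannot be read as particular to the list. Values were above 0 in both genotypes for 28 of 47 genes in Lrig1 (27.2% of all genes) and 32 of 47 in Lgr6 (29.1% of all genes). They were below 0 in both for 12 of 47 in Lrig1 (55.1% of all genes) and 8 of 47 in Lgr6 (51.9%). These sign counts were not repeated at a mean CPM of at least 5, where the medians of all genes in the WT comparisons were -0.06 and -0.04. They cannot be read as particular to the list.

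Herpud1 had a difference of similar size in both genotypes, at 2.51 ± 0.47 in Lrig1 and 2.45 ± 0.47 in Lgr6 within Pelo -/-. Psat1 measured 4.33 ± 0.69 and 3.88 ± 0.67 there, and Sdf2l1 5.87 ± 0.90 and 5.50 ± 0.89 with the Pelo -/- Lgr5 libraries at 4 counts each. Ppp1r15a was 1.76 ± 0.57 in Lrig1, not called in edgeR (adjusted p = 0.0603), and 2.05 ± 0.58 in Lgr6 (adjusted p = 0.0236). Whether these differences change with genotype is the test of Pelo effects between populations above, in which 0 of 47 passed. Eif2ak4 was lower in value in Pelo -/- Lrig1 and Lgr6 than in Pelo -/- Lgr5 (-1.73 ± 0.60 and -1.80 ± 0.61), without overlap and without a call in edgeR (adjusted p = 0.0808 and 0.0588). DESeq2 called it lower in both (adjusted p = 0.0138 and 0.00745). The 8 calls became 3 (6.38%) without Pelo -/- Lgr5 replicate 3, Pelo -/- Lrig1 replicate 1 or Pelo -/- Lrig1 replicate 2. All genes stood at 5.59%, 4.57% and 4.86% in those fits. The 8 became 4 (8.51%, all genes 5.18%) without Pelo -/- Lgr5 replicate 2. The 10 became 5 (10.6%) without Pelo -/- Lgr5 replicate 2 or 3 or Pelo -/- Lgr6 replicate 1 or 2. All genes stood at 6.66% to 7.11% there. The 10 became 6 (12.8%, all genes 6.89%) without Pelo -/- Lgr6 replicate 3.

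**Figure D4:**
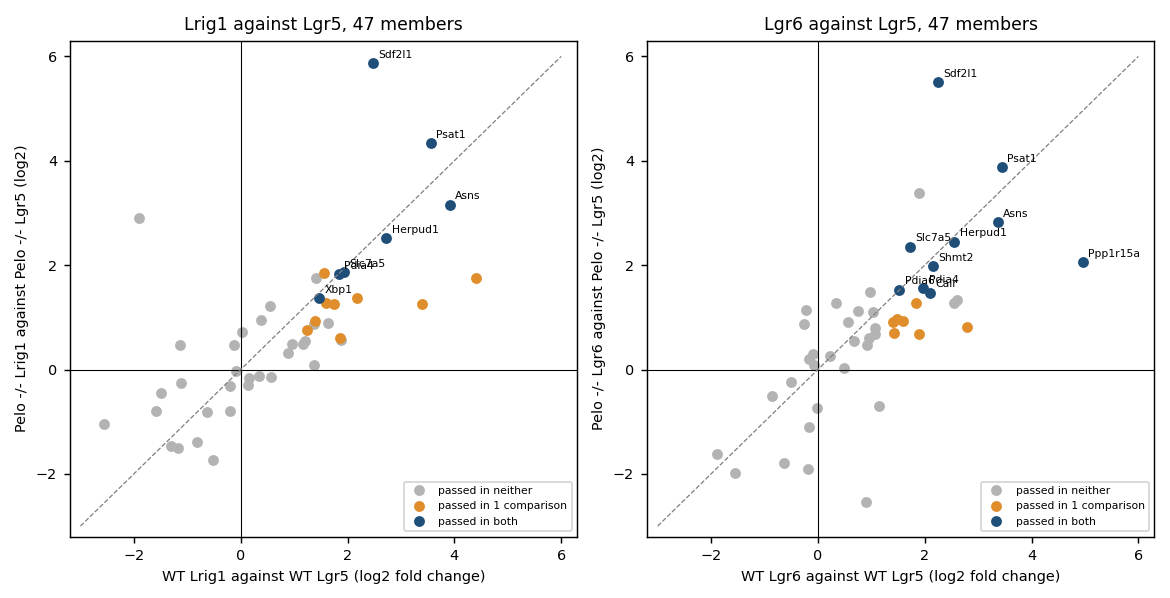
Each point is 1 of the 47 genes, with its log2 fold change against Lgr5 in WT cells on the horizontal axis and in Pelo -/- cells on the vertical axis, for Lrig1 (left) and Lgr6 (right). The dashed line marks equal values, blue points passed in both genotypes (7 and 10 genes) and orange points in 1; Sdf2l1 lies above the line and Ppp1r15a below it.

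The 69 other pathway genes gave calls in both directions. In WT Lrig1 against WT Lgr5, 16 of 69 were called higher and 4 lower (all genes 9.09% and 1.99%). In WT Lgr6 against WT Lgr5 the counts were 18 and 2 (all genes 10.6% and 1.57%). The asparaginyl-tRNA synthetase Nars (2.42 ± 0.39 and 2.39 ± 0.36), the redox regulator Txnip (2.68 ± 0.45 and 2.42 ± 0.42), the ER membrane protein Tmbim6 (2.48 ± 0.42 and 2.25 ± 0.39) and the neutral amino acid transporter Slc1a4 (3.37 ± 0.61 and 3.30 ± 0.58) were higher in both. Of the 11 genes of eIF2, its exchange factor and stalled-ribosome sensors, 4 and 5 were called higher and 0 lower, and of 12 tRNA synthetases 3 and 3. The genes called lower were Vldlr, Sec24d, Creb3l2 and Jdp2 in Lrig1 and Mbtps1, the protease that cleaves Atf6, and the glutamine transporter Slc38a2 in Lgr6. Slc38a2 measured -1.02 ± 0.32 and Mbtps1 -1.11 ± 0.34. Within Pelo -/- cells the calls were 7 higher and 4 lower in Lrig1 (all genes 5.77% and 2.08%). In Lgr6 they were 10 higher and 3 lower (all genes 7.23% and 2.72%).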

How the data were processed

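The authors deposited a table of raw counts (genes by 17 libraries), which was analysed without change. Per the submitters' processing notes, STAR and edgeR and the builds GRCm38 and mm10 were used, without versions; the counting tool, the annotation release and whether strand was used were each not given in the sources used here. Of 48820 identifiers, 48058 matched GENCODE mouse release 21 (GRCm38) once version numbers were dropped, and all columns matched a labelled sample. Levels of genes that overlap others may include their reads.

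All 17 libraries entered 1 edgeR 4.0.16 quasi-likelihood fit (R 4.3.3) with a coefficient per group, TMM factors and filterByExpr (minimum count 10, minimum total 15). A gene was called at an adjusted p under 0.05 over all 30405 genes of a comparison. The common dispersion was 0.537. Standard errors were derived by dividing the log2 fold change by the root of its F statistic, and intervals are 95%. CPM are TMM-scaled. Alternatives used DESeq2 1.42.0, limma-voom (limma 3.58.1), RLE, other filters, fewer groups, a replicate block and leaving out each library. No pair of replicates was a copy (smallest chi-square per degree of freedom 45.1).

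The genes, lists and tests were chosen with earlier results of these data known. Values in every library were printed for the kinases, Atf4, Ddit3, Trib3, Asns, Chac1, Hspa5 and Xbp1, for the 2 genes with the smallest p per direction in each Pelo -/- comparison and for the 4 per direction in the WT comparisons with Lgr5; of the other pathway genes, up to 4 called per direction were named. The comparisons within Pelo -/- cells were chosen after seeing the data. Cell type marker lists and a dissociation list were read the same way.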

Additional observations from a re-analysis of the deposited data

How the results depend on the processing

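The replicate numbers of the titles showed no clear pairing of samples, and correlations this small cannot exclude one. Deviations of same-numbered WT and Pelo -/- libraries of a population correlated at -0.09 to 0.22 over 8 pairs (median 0.09). Libraries of different number, across groups, correlated at -0.30 to 0.21 (median 0.006). With the replicate block, 12 of 47 genes were called in WT Lrig1 against WT Lgr5 and 16 in WT Lgr6 against WT Lgr5 (all genes 10.3% and 12.1%). Within Pelo -/- cells 9 and 9 were called with it (all genes 7.7% and 9.51%), and 0 in each Pelo -/- comparison with WT. In Lgr5, Pelo -/- against WT had 0 calls, but 1 with no filter on low counts (0.172% of all genes) and 3 with DESeq2 (0.622% of all genes). The 15 calls of WT Lrig1 against WT Lgr5 became 8 with RLE size factors (all genes 10.1%), 7 of 39 at a mean CPM of at least 5 (17.9%, all genes 28.1%) and 5 of 46 with only the compared groups (10.9%, all genes 9.78%), and 5 to 16 with 1 library left out. The 17 calls of WT Lgr6 against WT Lgr5 became 9, 10 and 8 under those settings (all genes 10.3%, 33.4% and 12%) and 7 to 13 with 1 library left out. Within Pelo -/- cells the 8 and 10 calls became 3 to 9 and 5 to 13 with 1 library left out. In such fits the share of all genes ran from 3.65% to 12.8% and 6.46% to 11.5% in the WT comparisons. It ran from 4.57% to 8.58% and 6.66% to 10.6% within Pelo -/- cells. A count of alternative values took the genes named for the Pelo -/- comparisons with WT. From the WT comparisons with Lgr5 it took only genes called in the edgeR fit of all libraries. Those could lose a call but not gain one, and the comparisons within Pelo -/- cells were left out. Of 1266 such alternative values, 144 lost and 4 gained a call, and 0 called values reversed. The other 1108 and 10 stayed on their side of the threshold. Those that stayed include 60 changes of sign among values that were not called. The 10 are the changes of sign that moved by their standard error or more, and values that kept their sign were not judged by size. Of 179 alternative medians of the list, 38 moved by more than the replicate SD of 0.179. The causes were not tested. Some alternatives called genes lower. In the WT comparisons these were Gdf15 with DESeq2 in both, Slc6a9 with DESeq2 in Lgr6, and at a mean CPM of at least 5 Dnajb9 in Lrig1 and Eif2ak3 and Dnajc3 in Lgr6. Within Pelo -/- cells Eif2ak4 was called lower in Lrig1 in 3 settings (DESeq2, a mean CPM of at least 5, only the compared groups) and in Lgr6 in these, with RLE and without Pelo -/- Lgr5 replicate 1; in Lgr6 Dnajb9 was called lower at a mean CPM of at least 5 and with only the compared groups, and Slc6a9 and Trib3 with DESeq2. Depth limits the genes under a few CPM, such as Chac1, Gdf15 and Trib3, and 2 libraries limit WT Lrig1.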
